A study of Mus musculus with 22 samples.

Results

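The interaction of CYP1B1 loss with house dust mite (HDM) exposure was examined in mouse lung epithelial cells (ECs). The interaction of a gene is its log2 ratio of CYP1B1-/- to wildtype (WT) after HDM minus the same log2 ratio at steady state. A positive value means that the gene stood higher in CYP1B1-/- relative to WT after HDM than at steady state. The libraries of both genotypes were used, 15 of the 22 libraries of the series, and all 21793 protein-coding genes of the 54373 genes listed. Of these, 16192 passed the filter on low counts and were tested. Levels are given in CPM, counts scaled by the effective library size, which is the protein-coding total times a TMM normalization factor, and differences on the log2 scale.

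RNA was sequenced from ECs sorted as living single cells, negative for the leukocyte marker CD45 and positive for the epithelial surface protein EpCAM. The sorted cells are also described as negative for the endothelial marker CD31. At steady state, labelled naive, there were 4 WT libraries and 3 labelled CYP1B1-/- (replicates 2, 3 and 4). After HDM there were 4 of each genotype. The HDM mice were sensitized once through the nose with extract of Dermatophagoides farinae, challenged on 4 consecutive days and taken 72 h after the last dose. All mice were on a C57BL/6 background and over 7 weeks of age, and the study used both sexes. The knockout is a germline allele, so every cell of the animal carries it and the leukocytes that HDM brings to the lung carry it as well. The 2 states were counted in separate tables, so state and run cannot be told apart, but both genotypes of a state come from the same table. The labels do not say whether libraries came from separate animals, and p-values measure the spread between these libraries.

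CYP1B1 is a cytochrome P450 enzyme that oxidizes steroids, retinoids, fatty acids and polycyclic aromatic compounds. Its gene is a target of the aryl hydrocarbon receptor (AhR), and CYP1 enzymes in turn degrade AhR ligands, which closes a feedback loop. The airway and alveolar epithelium is the first tissue that meets an inhaled allergen. It answers with alarmins, chemokines, mucins and surfactant proteins. The interaction asks whether HDM changes ECs without CYP1B1 in another way than ECs of WT mice.

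Some libraries stood apart. Total counts ranged from 9654825 to 17707000, but 3 HDM libraries (WT replicate 2 and CYP1B1-/- replicates 1 and 2) kept 1553630 to 2086773 protein-coding counts outside a few dominant predicted genes. One of those, Gm10800, took 64.6 to 68.2% of their counts. The other HDM libraries kept 3736620 to 13102824 such counts and the naive libraries 7218689 to 14120921. The naive CYP1B1-/- replicate 2 held 0.0907% mitochondrial counts, against 0.771 to 1.44% in the other naive libraries. Results are therefore also given without the 3 shallow libraries and without this naive library. A value of 3 counts corresponds to 0.126 to 1.02 CPM. All naive libraries carried reads of the Y-linked gene Ddx3y (20.5 to 89.6 CPM) and the HDM libraries had 0, so the sex of the mice cannot be told apart from the state either.

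No gene passed the test of the interaction. At a Benjamini-Hochberg adjusted p of at most 0.05 in edgeR's quasi-likelihood test, 0 of 16192 genes were called higher and 0 lower, 0% of those tested in each direction, and the lowest adjusted p was 0.99998. An unadjusted p under 0.05 was reached by 366 genes (2.26%). If p-values were evenly spread, as with no interaction, a share of 0.05 of the genes would fall under this threshold. The share reached is below that, so genes named below by their unadjusted p are not detected changes. Of the 366 genes, 248 (1.53%) had an interaction above 0 and 118 (0.729%) below. With RLE normalization the split was 224 above 0 and 173 below, and with TMM within each state it was 214 and 172. DESeq2, run as an alternative, called 1 gene, F830016B08Rik, and had 310 genes above 0 and 213 below at an unadjusted p under 0.05.

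The data set limits on what could have been missed. The median standard error of the log2 interaction was 0.56, with 5% of the genes under 0.32 and 5% over 1.34. The 95% interval of the interaction lay within -1 and 1 for 2684 genes (16.6%) and within -2 and 2 for 10121 genes (62.5%). An absolute log2 interaction of at least 1 was measured in 2007 genes (12.4%). For most genes the interval reached an interaction of 2-fold or more, so one of that size was not excluded by these libraries.

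Both genotypes responded strongly to HDM. Between HDM and steady state, 6352 genes changed in WT (39.2% of those tested, 3543 rose and 2809 fell). In the libraries labelled CYP1B1-/-, 5537 genes changed (34.2%, 3071 rose and 2466 fell). The 4800 genes called in both, 75.6% of the WT calls and 86.7% of the CYP1B1-/- calls, all moved in the same direction. Across genes, the log2 responses of both genotypes had a Pearson correlation of 0.92 (n = 16192 genes, which are not independent) and standard deviations of 1.59 each. Since state, run and sex are joined in this comparison, the counts describe the libraries and not HDM alone. The genotype differences of the 2 states were much smaller, with standard deviations over genes of 0.44 each, and their correlation across genes was -0.08.

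**Figure D1:**
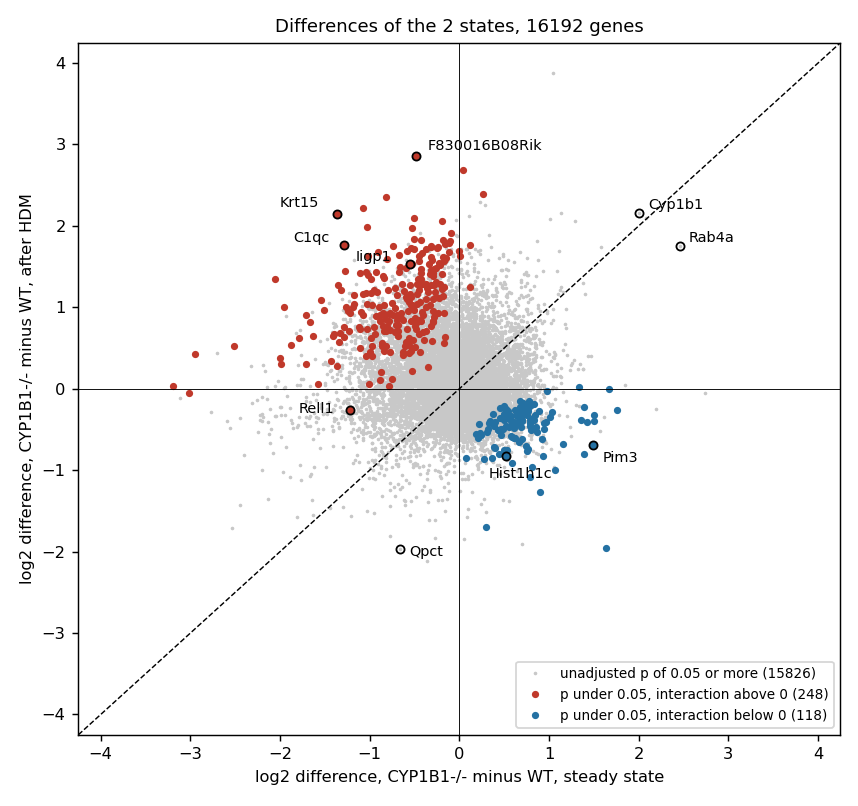
Log2 difference between the libraries labelled CYP1B1-/- and WT at steady state (x axis) and after HDM (y axis) for the 16192 genes tested. Each point is a gene. Red and blue points had an unadjusted p under 0.05 with an interaction above 0 (248 genes) or below 0 (118 genes), and a gene on the dashed diagonal has an interaction of 0. Cyp1b1 lies close to the diagonal, F830016B08Rik far above it and Pim3 far below it.

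Cyp1b1 itself (ENSMUSG00000024087, mm10 chromosome 17, 79701537 to 79715061) was read first. In the naive WT libraries it was at 1.31, 2.03, 0.841 and 0.590 CPM, and in those labelled CYP1B1-/- at 3.77, 5.36 and 5.73 CPM. After HDM, its level was 0.914, 2.70, 1.78 and 2.60 CPM in WT and 10.0, 15.9, 5.26 and 5.32 CPM in the libraries labelled CYP1B1-/-. In both states every library labelled CYP1B1-/- lay above every WT library, the opposite of what a missing transcript would give. Counts were deposited per gene and not per exon, so reads of a shortened transcript would enter them. Genotypes are therefore named by their labels. The log2 difference was 2.01 at steady state and 2.16 after HDM, and the interaction was 0.15 (standard error 0.67, 95% interval -1.27 to 1.58, unadjusted p = 0.849 in edgeR's quasi-likelihood test). The sign of so small a value changed with the libraries used, and it was -0.56 without the 3 shallow libraries. Cyp1a1 and Cyp1a2, the other CYP1 genes, stayed at or under 1.28 CPM and 0.677 CPM in every library and did not pass the filter.

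Other genes had a genotype difference of the same sign in both states. In edgeR's quasi-likelihood test, the genotype difference reached an adjusted p of at most 0.05 in 0 genes at steady state and in 0 after HDM. Rab4a, a small GTPase of early endosomes, was 2.46 higher on the log2 scale at steady state and 1.76 higher after HDM, with an interaction of -0.70 (standard error 0.63) that was -0.37 without the naive CYP1B1-/- replicate 2 and -0.35 without the WT HDM replicate 1. Srbd1, an RNA-binding domain protein encoded within 10 Mb of Cyp1b1, was -1.67 and -1.07, with an interaction of 0.59 (standard error 0.46) that was 0.093 without the CYP1B1-/- HDM replicate 3. For both genes the naive libraries were apart and the HDM libraries overlapped. Ide, the insulin-degrading enzyme, chosen here after its values were seen, was at 149 to 195 CPM in naive WT libraries and at 72.9 to 93.6 CPM in those labelled CYP1B1-/-. After HDM, Ide was at 61.3 to 120 CPM in WT and at 27.9 to 61.0 CPM in those labelled CYP1B1-/-. Its libraries did not overlap in either state, and its interaction was -0.09 (standard error 0.44). Of the genes tested, 4 (0.0247%) had every CYP1B1-/- library above every WT library in both states and 2 (0.0124%) every one below.

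Rell1, a relative of the TNF receptor RELT, parted the genotypes at steady state but not after HDM. Its naive WT libraries read 32.5, 29.3, 28.4 and 29.0 CPM, against 10.4 to 16.8 CPM in the libraries labelled CYP1B1-/-. After HDM they read 41.2, 36.9, 38.3 and 30.1 CPM against 28.1, 25.4, 36.1 and 32.3 CPM. The naive libraries were apart, as in 211 genes (1.3%) below WT and 287 (1.77%) above WT at steady state, and the HDM libraries overlapped. The interaction was 0.97 (standard error 0.31, unadjusted p = 0.00584, edgeR), and it was 1.09 without the 3 shallow libraries and 1.21 without the naive CYP1B1-/- replicate 2. Qpct, glutaminyl-peptide cyclotransferase, lies within 10 Mb of Cyp1b1 and had every library labelled CYP1B1-/- below WT in both states. It was at 0.717 to 1.31 CPM against 0.376 to 0.665 CPM at steady state, and at 216, 101, 176 and 123 CPM against 28.7, 4.06, 67.5 and 55.2 CPM after HDM. Its response to HDM was 7.30 in WT and 5.99 in the libraries labelled CYP1B1-/-, and the interaction of -1.31 had a standard error of 0.86. Over the 94 tested genes within 10 Mb of Cyp1b1, 45 interactions were above 0 and 49 below, with a median of -0.06 against 0.05 over all genes.

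**Figure D2:**
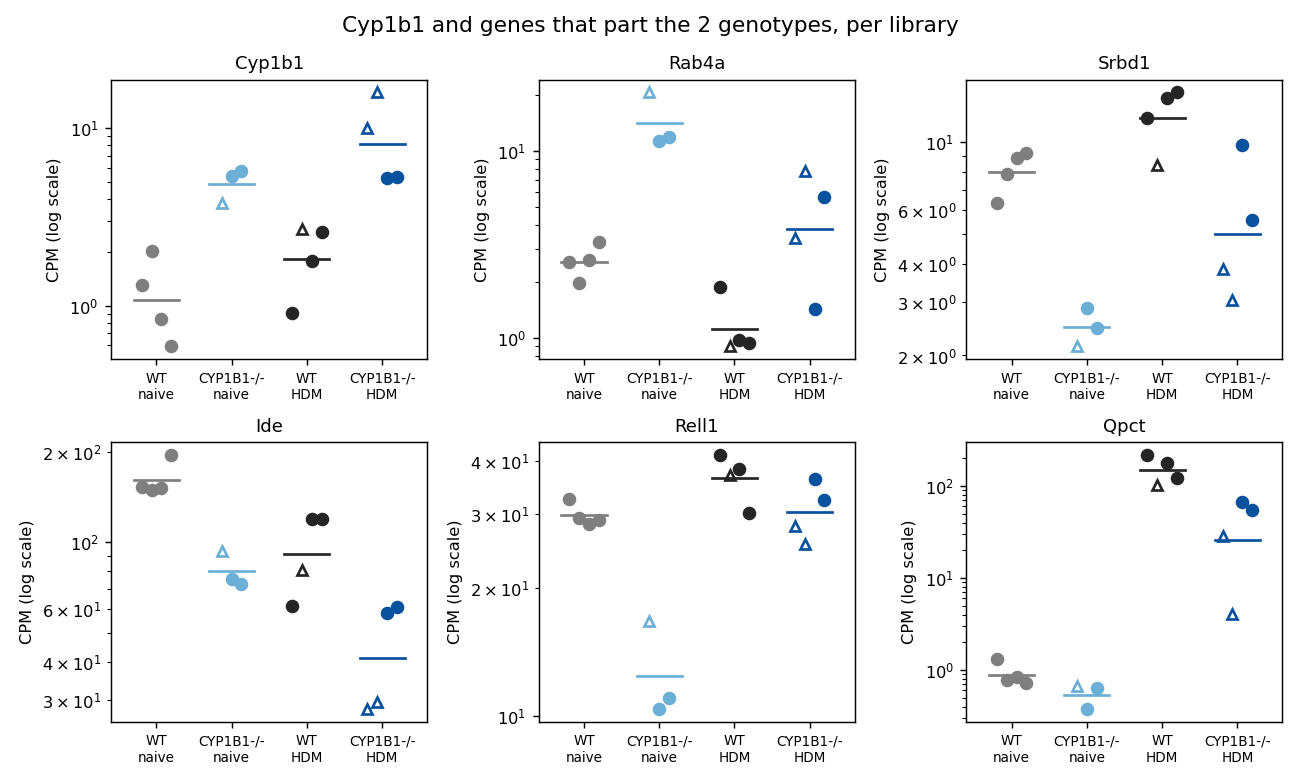
CPM per library (log scale) of Cyp1b1 and 5 genes that part the genotypes in one or both states. Bars are geometric means, and open triangles mark the 3 shallow HDM libraries and the naive CYP1B1-/- replicate 2. Cyp1b1, Ide and Qpct keep the same order of genotypes in both states, while Rell1 is apart at steady state and overlaps after HDM.

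The lowest p of the interaction belonged to F830016B08Rik (ENSMUSG00000090942, chromosome 18), a predicted member of the immunity-related GTPases. These proteins are induced by interferon-gamma and attack the vacuoles of intracellular pathogens. At steady state the gene was read at 0.719, 0.917, 0.561 and 0.253 CPM in WT and at 0.222, 0.470 and 0.516 CPM in the libraries labelled CYP1B1-/-. After HDM, WT stood at 2.15, 1.80, 0.649 and 1.52 CPM and the libraries labelled CYP1B1-/- at 11.9, 18.0, 11.3 and 6.72 CPM. Every HDM library labelled CYP1B1-/- was above every WT library, as in 78 genes (0.482%) of those tested, while the naive libraries overlapped at levels near the limit of 3 counts. The interaction was 3.34 (standard error 0.69, 95% interval 1.88 to 4.80, unadjusted p = 0.000131 in edgeR's quasi-likelihood test). It was 2.94 without the 3 shallow libraries and 3.10 without the naive CYP1B1-/- replicate 2. In DESeq2 it was 3.43 with an adjusted p of 0.04995, and in edgeR's likelihood ratio test the adjusted p was 0.0574. In every other alternative run, the adjusted p of each gene named here was 0.195 or more.

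Of the 14 interferon-inducible GTPases tested, 4 had every library labelled CYP1B1-/- above WT after HDM, against 0.482% of all genes (F830016B08Rik, Iigp1, Tgtp1 and Irgm2, the last chosen after its values were seen), and in the other 10, among them Igtp, Irgm1 and the Gbp genes, the libraries overlapped. Iigp1 (ENSMUSG00000054072), a well-studied effector of this family that is also encoded on chromosome 18, had 5.43, 4.13, 5.05 and 2.07 CPM in naive WT libraries and 1.48, 3.53 and 3.33 CPM in naive CYP1B1-/- libraries. After HDM, Iigp1 was at 26.2, 14.4, 12.8 and 9.31 CPM in WT and at 36.6, 68.8, 49.1 and 29.2 CPM in the libraries labelled CYP1B1-/-. All 4 lay above the highest WT library, and the naive groups overlapped. The interaction was 2.08 (standard error 0.57, unadjusted p = 0.00221, edgeR), 1.74 without the shallow libraries. Gm4951, another member of the family that is not among these 14 and was chosen after its values were seen, was at 0.901 to 2.15 CPM in WT after HDM and at 3.21 to 6.53 CPM in the libraries labelled CYP1B1-/-. Its interaction was 2.22 (standard error 0.75). Tgtp1, on chromosome 11 and likewise chosen afterwards, was at 4.54 to 14.8 CPM against 15.0 to 26.1 CPM after HDM, with an interaction of 1.55 (standard error 0.72). Genes of this family have close copies, among which counts may be split, so the single values are uncertain.

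The list of interferon-inducible genes held 36 tested genes, of which 32 interactions were above 0 and 4 below. Its median was 0.74 against 0.05 over all genes, and 4 genes had an unadjusted p under 0.05, all of them above 0, against 8842 interactions above 0 and 1.53% of genes above 0 at this p among the 16192. Without the CYP1B1-/- HDM replicate 3 the median of the list was 0.32, without the naive WT replicate 1 or the naive CYP1B1-/- replicate 2 it was 0.49. The roles below were assigned after the values were seen and cover 31 of the 36 genes, so their medians describe the list and the differences between roles were not tested. The 14 interferon-inducible GTPases all had an interaction above 0, from 0.73 to 3.34 with a median of 1.25. Besides F830016B08Rik, Iigp1 and Tgtp1 they include Gbp4, a guanylate-binding protein, at 1.90 (standard error 0.75), and 1.03 without the naive WT replicate 1. The 11 effectors of RNA virus sensing and ISGylation, such as the Ifit and Oas genes, had a median of 0.13 (9 above 0 and 2 below). The 6 STAT and IRF transcription factors had a median of 0.09. With single libraries left out, these medians ran from -0.24 to 0.41 and from -0.35 to 0.30. The GTPase median was 1.51 without the 3 shallow libraries and 0.76 without CYP1B1-/- HDM replicate 3, which was the lowest value with any library left out. Without the naive WT replicate 1 it was 0.97, with 13 genes above 0 and 1 below.

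Interferon-inducible GTPases are also expressed by leukocytes, so the leukocyte markers are given beside them. After HDM, the summed CPM of 20 hematopoietic markers was 2814 to 7888 in WT and 509 to 7819 in the libraries labelled CYP1B1-/-. At steady state these sums were 98.5 to 440 and 104 to 130. The lowest HDM sum belonged to CYP1B1-/- replicate 2, which had the highest F830016B08Rik and Iigp1 of all libraries. The summed CPM of the 36 interferon-inducible genes was the lowest of the HDM libraries in it, 665 against 794 or more in the others, and was the highest in CYP1B1-/- replicate 3, whose hematopoietic sum was 7819. Replicate 2 had the highest summed macrophage and myeloid markers, 8072 CPM against 3750 to 7721 CPM in the other HDM libraries, but the lowest mean log2 CPM of these markers, 3.47 against 3.73 to 5.09. Of its sum, 6897 CPM were those of Lyz2, which alveolar type 2 cells express as well. The leukocyte antigen gene Ptprc (CD45), by which cells were excluded in the sort, was at 30.8 CPM in that library and at 211 to 691 CPM in the other HDM libraries. Fewer leukocytes and less RNA per leukocyte cannot be told apart in such bulk libraries.

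**Figure D3:**
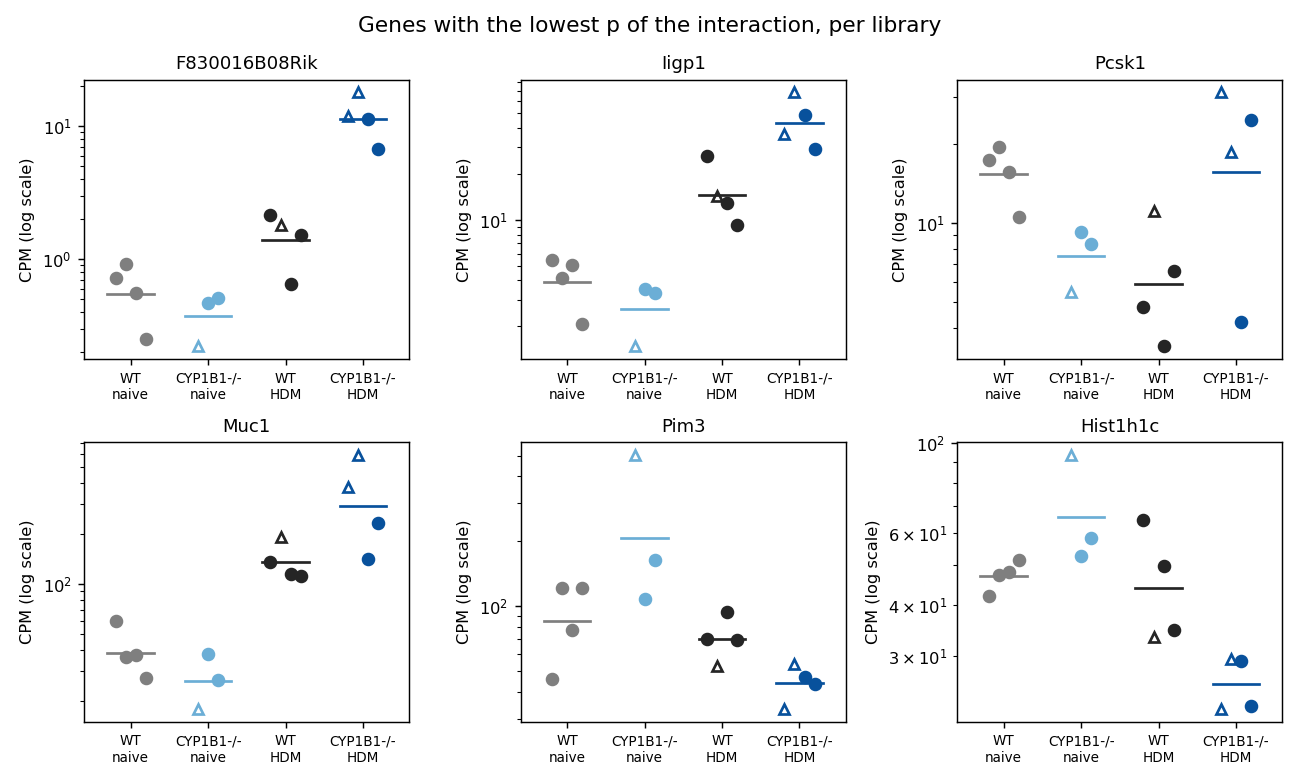
CPM per library (log scale) of 6 of the genes of lowest p. Bars are geometric means, and open triangles mark the 3 shallow HDM libraries and the naive CYP1B1-/- replicate 2. For F830016B08Rik and Iigp1 all 4 HDM libraries labelled CYP1B1-/- lie above WT. For Pim3 the naive CYP1B1-/- replicate 2 lies far above the other libraries.

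Of the genes at 5 CPM or more on average, Pcsk1 had the lowest p. It encodes a prohormone convertase of neuroendocrine and other secretory cells (ENSMUSG00000021587, chromosome 13, 75089826 to 75134861). It was at 17.4, 19.5, 15.6 and 10.5 CPM in naive WT libraries and at 5.47, 9.27 and 8.31 CPM in those labelled CYP1B1-/-. After HDM the order turned, with 4.80, 11.1, 3.41 and 6.57 CPM in WT and 31.3, 18.6, 4.20 and 24.6 CPM in the libraries labelled CYP1B1-/-. The naive libraries were apart, whereas replicate 3 of the CYP1B1-/- HDM libraries lay among the WT values. The interaction was 2.65 (standard error 0.67, unadjusted p = 0.00134, edgeR), 2.43 without the shallow libraries and 2.90 without that replicate. Resp18, a protein of dense-core secretory granules, overlapped at steady state, with 5.57 to 8.17 CPM in WT and 1.85 to 7.20 CPM in the libraries labelled CYP1B1-/-. It was at 19.6, 17.3, 3.08 and 17.8 CPM in the HDM libraries labelled CYP1B1-/- and at 3.03 to 8.71 CPM in the WT ones, again with replicate 3 within WT, with an interaction of 2.31 (standard error 0.73).

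Muc1, a membrane mucin of alveolar type 2 and airway cells (chromosome 3, 89229057 to 89233381), was at 27.4 to 59.8 CPM in naive WT libraries and at 17.8 to 38.2 CPM in those labelled CYP1B1-/-. After HDM it was at 135, 192, 115 and 111 CPM in WT and at 380, 589, 141 and 232 CPM in the libraries labelled CYP1B1-/-. The highest values were those of the 2 shallow CYP1B1-/- libraries, and replicate 3 lay within WT. Its interaction was 1.83 (standard error 0.58), and 1.09 without the shallow libraries. Slc26a9, an airway chloride transporter, and Epha7, an ephrin receptor, followed this pattern, with interactions of 1.71 and 1.52 that were 0.73 and 0.66 without the shallow libraries. Less dependent on these libraries were Vcam1, an adhesion molecule for leukocytes (1.47, and 1.57 without them), and Fam213a, an antioxidant protein (1.64, and 1.62 without them). Ctsc, the protease cathepsin C, was at 1.45 and 1.08.

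Krt15, a keratin of basal and some secretory airway cells, had the largest interaction among the genes named here. It was at 0.328 to 1.90 CPM in naive WT libraries and at 0.459 to 0.517 CPM in those labelled CYP1B1-/-. After HDM the WT libraries read 0.731, 3.90, 1.95 and 2.89 CPM, and those labelled CYP1B1-/- read 8.09, 4.74, 2.60 and 24.1 CPM. Replicate 4 was well above the other 3, and replicate 3 lay within WT. The interaction was 3.50 (standard error 1.00, unadjusted p = 0.0024, edgeR).

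Of the genes with an interaction below 0, the lowest p was that of Hist1h1c, which encodes a linker histone (ENSMUSG00000036181, chromosome 13, 23738808 to 23740367). It was at 42.0, 47.4, 48.3 and 51.7 CPM in naive WT libraries and at 93.5, 52.7 and 58.3 CPM in those labelled CYP1B1-/-. After HDM the WT libraries were at 64.7, 33.3, 49.8 and 34.6 CPM and those labelled CYP1B1-/- at 22.1, 29.5, 29.1 and 22.6 CPM. All CYP1B1-/- libraries were above WT at steady state and all were below WT after HDM. Such a crossing downwards was seen in 1 gene (0.00618%). The interaction was -1.35 (standard error 0.37, unadjusted p = 0.00217, edgeR), -1.50 without the shallow libraries and -1.06 without the naive CYP1B1-/- replicate 2. The opposite crossing was seen in 2 genes (0.0124%), Ccdc138 (1.01, standard error 0.40) and 1700030J22Rik (1.65, standard error 0.68), both chosen after their values were seen. 1700030J22Rik stayed at or under 1.92 CPM. Groups this small can also be parted in both states by the random order of libraries. How many genes that would give was not tested, so these small shares do not mark the genes as unusual.

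Pim3, a serine/threonine kinase gene induced by cytokine signals, had the largest negative interaction of those named. Its naive WT libraries were at 45.6, 122, 77.3 and 121 CPM, and those labelled CYP1B1-/- at 502, 108 and 163 CPM. The HDM libraries were at 70.6, 52.9, 93.8 and 69.7 CPM in WT and at 33.2, 53.9, 46.9 and 43.3 CPM in those labelled CYP1B1-/-. One naive library, CYP1B1-/- replicate 2, was more than 3 times as high as any other naive library. The interaction was -2.19 (standard error 0.61) with this library and -1.27 (standard error 0.48) without it.

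The same library was at the top in most genes with a negative interaction. Of the 118 genes below 0 at an unadjusted p under 0.05, it was the highest of the 7 naive libraries in 114 (96.6%), against 33.0% of all genes tested. Choosing genes below 0 itself favours high naive CYP1B1-/- values. Within the 3 naive CYP1B1-/- libraries, replicate 2 was the highest in 115 (97.5%), against 49.8% of all genes. Without this replicate, 15 genes were below 0 at this threshold and 258 above. The other negative genes named by rank also had replicate 2 as their highest naive CYP1B1-/- library. They are Klf2, a transcription factor induced by flow in endothelium (-1.75), Ocel1 (-1.45), Spsb1, an adaptor of ubiquitin ligases (-1.44), Rab11fip5 (-1.25), Itgb3, an integrin subunit (-1.25), Sema6d, a semaphorin (-1.21), Mmd (-1.18) and Gpr146 (-1.10). Without replicate 2, the interactions were -0.78 for Rab11fip5, -0.66 for Sema6d, -0.70 for Mmd and -0.58 for Gpr146, and between -1.21 and -1.05 for Klf2, Ocel1, Spsb1 and Itgb3. For Sema6d, the naive CYP1B1-/- libraries read 123, 52.7 and 49.2 CPM against 43.4 to 51.7 CPM in WT. After HDM, Sema6d was at 7.24 to 11.3 CPM, below all WT libraries at 11.5 to 16.2 CPM. For Ocel1, 22.7% of the exon length overlaps Nr2f6 on the other strand, so part of its counts may belong to that gene.

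Single libraries also weighed on the positive interactions. Of the 248 genes above 0, CYP1B1-/- replicate 3 was the lowest of its 4 HDM libraries in 157 (63.3%, against 23.5% of all genes), and the naive WT replicate 1 was the highest naive library in 100 (40.3%, against 15.5%). The naive CYP1B1-/- replicate 2 was the lowest of the 7 naive libraries in 124 (50%, against 30.1%). Choosing genes above 0 favours high naive WT and low naive CYP1B1-/- values, so shares within a group are given too. Within the 4 naive WT libraries, replicate 1 was the highest in 101 (40.7%, against 26.3%). Within the 3 naive CYP1B1-/- libraries, replicate 2 was the lowest in 143 (57.7%, against 39.5%). Without CYP1B1-/- HDM replicate 3, 437 genes were above 0 and 389 below at an unadjusted p under 0.05, and 0 passed after adjustment. Without the 3 shallow libraries the numbers were 218 and 142, and 145 of these genes were among the 366.

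The AhR genes, to which CYP1B1 is tied, did not stand out. Of 15 tested genes of the AhR list, 8 interactions were above 0 and 7 below, with a median of 0.03. Ahr, the receptor, was at 6.99 to 11.8 CPM in naive WT libraries, at 8.65 to 12.5 CPM in naive CYP1B1-/- libraries, and after HDM at 10.8 to 20.4 and 7.79 to 19.9 CPM. The groups overlapped in both states and the interaction was -0.33 (standard error 0.43). Of the receptor and its partners, 2 of 6 were above 0, with a median of -0.29. Like the interferon roles, this role and the AhR targets below were set after the values were seen. They do not cover all 15 tested genes, and the difference between them was not tested.

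Among the AhR targets, which include Cyp1b1 itself, 6 of 8 were above 0, with a median of 0.25. That median was 0.0016 without the naive CYP1B1-/- replicate 2 and -0.049 without the shallow libraries. Tiparp, an ADP-ribosyltransferase that shuts down AhR signalling, was the one with an unadjusted p under 0.05. Over all genes, 0.729% were below 0 at this p. Tiparp was at 75.2, 124, 98.0 and 159 CPM in naive WT libraries and at 496, 168 and 197 CPM in those labelled CYP1B1-/-. After HDM it was at 47.9 to 53.1 CPM in WT and at 31.5 to 82.2 CPM in the libraries labelled CYP1B1-/-. The naive libraries were apart, with the highest value again in replicate 2. The interaction was -1.31 (standard error 0.54, unadjusted p = 0.0253, edgeR), and -0.66 without that replicate. Nqo1, the quinone reductase, chosen after its values were seen, had 1.11 (standard error 0.60), and 0.45 without the shallow libraries.

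Genes that make or use AhR ligands and CYP1B1 substrates were similar. The tryptophan and kynurenine list had 7 interactions above 0 and 7 below, with a median of 0.03. The list of retinoid, steroid and eicosanoid metabolism had 19 above and 9 below and a median of 0.44, which was 0.14 without the shallow libraries. Its 2 genes at an unadjusted p under 0.05 were Ptgs2, the inducible cyclooxygenase (0.99, standard error 0.43), and Hpgd, which degrades prostaglandins (1.84, standard error 0.87, and 0.89 without the naive WT replicate 1). Over all genes, 1.53% were above 0 at this p. The NRF2 antioxidant genes had a median of 0.03, from -0.13 to 0.098 with single libraries left out, and the circadian clock genes of -0.22.

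The lists of alveolar type 2, alveolar type 1 and ciliated cell genes were the most one-sided. Macrophage and myeloid markers (22 above 0 and 2 below) and endothelial markers (11 and 1) came close, ahead of the other epithelial lists. All 18 alveolar type 2 genes, the surfactant-producing cells of the alveolus, had an interaction above 0, with a median of 1.42, and 6 had an unadjusted p under 0.05. Over all genes, 8842 of 16192 interactions were above 0, and 1.53% of the genes were above 0 at this p. The alveolar type 2 genes were on median 0.76 lower in the libraries labelled CYP1B1-/- at steady state, a log2 difference of -0.76, and 0.66 higher after HDM. The surfactant protein genes had 1.90 (Sftpc, standard error 1.09), 1.75 (Sftpa1, standard error 0.89) and 1.51 (Sftpb, standard error 0.64), all chosen after their values were seen. Without the 3 shallow libraries and the naive CYP1B1-/- replicate 2, Sftpc was at 0.29 and Sftpa1 at 0.35. Sftpb was at 0.60 without the 3 shallow libraries. In CPM, Sftpb was at 116, 68.8, 82.2 and 60.8 in naive WT libraries and at 77.1, 54.0 and 50.3 in those labelled CYP1B1-/-. After HDM it was at 312, 280, 168 and 118 CPM and at 579, 802, 157 and 307 CPM. The groups overlapped in both states, and the 2 highest libraries were the shallow CYP1B1-/- ones. Lamp3, a lamellar body protein (1.62), Scd1, a fatty acid desaturase (1.76), and Lyz2, lysozyme (1.92), were also highest in the shallow CYP1B1-/- replicate 2. Without the 3 shallow libraries the median of the list was 0.38, with 14 genes above 0 and 4 below. Their summed level ranged from 8143 to 36898 CPM in WT and from 10300 to 64506 CPM in the libraries labelled CYP1B1-/- after HDM, so the groups overlapped widely.

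The 21 ciliated cell genes, of the motile cilia of the airway, had 20 interactions above 0 and 1 below, and a median of 1.16. Their median log2 response to HDM was -0.71 in WT and 0.58 in the libraries labelled CYP1B1-/-. The genes of lowest p were Ccdc153 (2.08, standard error 0.84) and Rsph1, a radial spoke protein (1.72, standard error 0.77). Without the CYP1B1-/- HDM replicate 4 Ccdc153 was at 1.26, and with limma voom Ccdc153 was at 1.12 and Rsph1 at 0.81. Ccdc153 was at 4.97, 4.85, 6.73 and 13.6 CPM in naive WT libraries and at 1.48, 6.30 and 8.72 CPM in those labelled CYP1B1-/-. After HDM it was at 3.66, 4.81, 4.06 and 2.81 CPM in WT and at 9.16, 10.5, 2.76 and 24.3 CPM in the libraries labelled CYP1B1-/-. In 3 of 4 HDM libraries labelled CYP1B1-/- it was above all WT values, and in replicate 3 it was below. The median of the list was 1.38 without the shallow libraries and stayed between 0.81 and 1.42 with each library left out in turn.

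The 14 alveolar type 1 genes, of the thin gas-exchange cells, had interactions below 0 throughout, from -1.77 to -0.02 with a median of -0.36 and 0 genes at an unadjusted p under 0.05. Without the WT HDM replicate 2 the median was -0.061 with 7 genes above 0, and without the CYP1B1-/- HDM replicate 2 it was -0.87. Club and secretory genes had 13 above 0 and 2 below and a median of 0.82, but -0.52 without the shallow libraries. The goblet and IL-13-type genes, central to mucus in allergy, had a median of 0.20, and -0.72 without those libraries. Basal and repair-state genes had a median of 0.51, which was 0.28 without the CYP1B1-/- HDM replicate 4. Their gene of lowest p was Sprr1a, a cornified envelope protein of injured epithelium (2.11, standard error 0.68). Pan-epithelial markers had a median of 0.37, and -0.16 without the shallow libraries. Their gene of lowest p was Ehf, an epithelial transcription factor (1.30). Epcam, the sorting marker, was at 94.4 to 136 CPM in naive WT and 126 to 299 CPM in naive CYP1B1-/- libraries. After HDM it was at 126 to 275 and 170 to 329 CPM, with an interaction of -0.72 (standard error 0.48), and -0.23 without the naive CYP1B1-/- replicate 2.

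**Figure D4:**
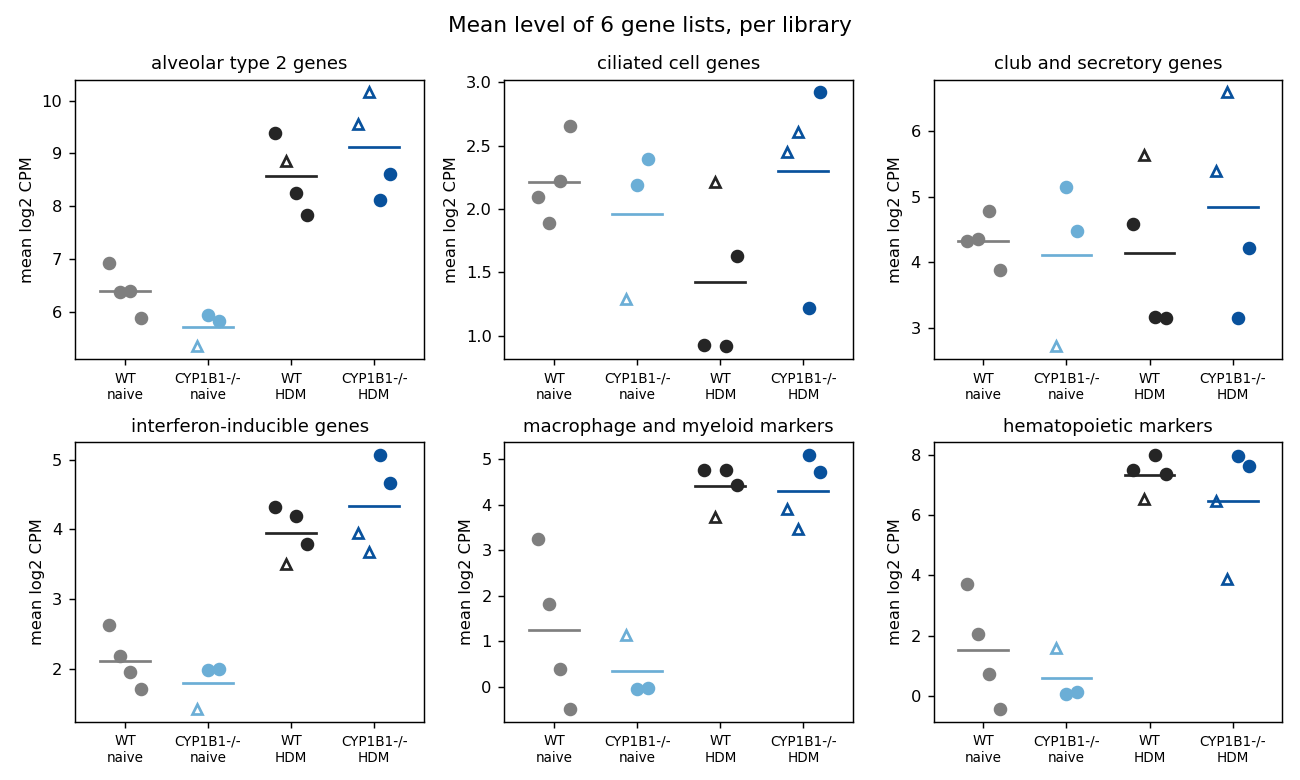
Mean log2 CPM of 6 gene lists in each library. Bars are group means, and open triangles mark the 3 shallow HDM libraries and the naive CYP1B1-/- replicate 2. Groups overlap after HDM in all 6 lists, and the highest alveolar type 2 and club values are those of shallow libraries.

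Genes of the allergic and innate response were mostly slightly above 0. The alarmins and epithelial cytokines had a median of 0.66 (13 above 0 and 2 below), with 0 genes at an unadjusted p under 0.05, and a median of 0.19 without the naive WT replicate 1. Il33, the alarmin released by alveolar type 2 cells, responded to HDM by 3.55 in WT and 4.37 in the libraries labelled CYP1B1-/-, and its interaction was 0.82 (standard error 0.84), and 0.051 without the shallow libraries. Chemokines had a median of 0.50, which was 0.19 without the WT HDM replicate 4 and 0.23 without the naive WT replicate 1. The highest was Ccl6 (3.38, standard error 1.40), a chemokine of myeloid cells, at 1.66 without the naive WT replicate 1 and 0.42 with a replicate block within state. Toll-like and NOD-like receptors with NF-kappaB feedback genes had 0.13, with Tlr4, the endotoxin receptor through which HDM acts on epithelium, at 1.04 (standard error 0.45). Antimicrobial and complement genes had a median of 0.53, MHC class II genes 0.49 and MHC class I and immunoproteasome genes -0.04. Without the shallow libraries the antimicrobial median was 0.062. Without the naive WT replicate 1 the MHC class II median was -0.035, and with a replicate block within state -0.11. Tight and adherens junction genes had 0.23, with Cldn8, a claudin, at 1.82 (standard error 0.74). With single libraries left out, the medians ranged from -0.29 to 0.21 for the receptors, from -0.35 to 0.14 for MHC class I and from -0.13 to 0.37 for the junction genes.

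Immediate early genes, induced within minutes by handling and by growth signals, had 4 interactions above 0 and 19 below and a median of -0.47. The median was -0.28 without the WT HDM replicate 3 and -0.75 without the CYP1B1-/- HDM replicate 4. Their 2 genes below 0 at an unadjusted p under 0.05 (0.729% of all genes) were Klf2 (above) and Junb, an AP-1 subunit (-0.81, standard error 0.37). Junb was at 59.6 to 80.3 CPM in naive WT and at 66.5 to 93.5 CPM in naive CYP1B1-/- libraries. After HDM, Junb was at 298 to 573 CPM in WT and at 259 to 344 CPM in the libraries labelled CYP1B1-/-. Medians of the remaining lists were -0.19 for heat shock and the unfolded protein response, -0.17 for cell division and -0.07 for oxidative phosphorylation. With single libraries left out, the medians ran from -0.67 to 0.12 for cell division and from -0.41 to 0.069 for oxidative phosphorylation, with the lowest of both without the CYP1B1-/- HDM replicate 3. Sterol and fatty acid synthesis was at 0.00, with Insig1, the sterol sensor that retains SREBP, at -1.10 (standard error 0.50), and -0.73 without the naive CYP1B1-/- replicate 2.

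Markers of other cell types had medians on both sides of 0. Macrophage and myeloid markers had a median interaction of 1.63 (22 above 0 and 2 below) and hematopoietic markers of 1.27 (18 and 2). Without the naive WT replicate 1, these medians were 0.24 and -0.17. The summed CPM of the 25 macrophage and myeloid markers was 672 to 1891 in naive WT and 429 to 673 in naive CYP1B1-/- libraries, and 3750 to 7721 and 4899 to 8072 after HDM. The mean log2 CPM of the markers averaged 1.24 and 0.36 at steady state and 4.42 and 4.30 after HDM. The median difference between genotypes was -1.51 at steady state and -0.25 after HDM, both below 0 and the larger one at steady state. C1qc, a complement subunit made by tissue macrophages, was at 0.295 to 1.83 CPM in naive WT libraries and at 0.0941 to 0.591 CPM in naive CYP1B1-/- libraries. It was at 0.901 to 4.06 and at 2.77 to 18.3 CPM after HDM, and its interaction was 3.05 (standard error 1.00). C1qa, its partner, had 2.61 (standard error 1.29), and 1.61 without the naive WT replicate 1. At most 1 of the 25 markers was at 0 in any library, so myeloid RNA was present throughout, and its part in the interactions was not tested beyond a fit with the hematopoietic level as a covariate. That fit called 0 genes and had 289 genes above 0 and 235 below at an unadjusted p under 0.05.

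Mesenchymal markers had a median of 1.00 (0.47 without the CYP1B1-/- HDM replicate 2), endothelial markers of 0.78 with Tek, an angiopoietin receptor, at 2.34 (standard error 1.08), and red cell markers of 2.15. Without the naive WT replicate 1 the red cell median was -0.61, the endothelial median 0.29 and Tek 1.25. T and NK cell markers were at -0.08 and B and plasma cell markers at 0.28 with Fcer2a, the low-affinity IgE receptor CD23, at 2.42 (standard error 1.07), and 0.76 without the naive WT replicate 1. Pecam1, which encodes CD31, was at 1.18 to 7.91 CPM and 0.470 to 2.29 CPM at steady state and at 8.41 to 22.6 and 4.06 to 14.4 CPM after HDM, with an interaction of 0.78 (standard error 0.91). For Ptprc the interaction was 2.14 (standard error 1.27), and 0.70 without the naive WT replicate 1. The 4 tested sex-linked genes had a median of 0.30. After HDM they summed to 0.0914 to 0.300 CPM in WT and 0 to 0.213 CPM in the libraries labelled CYP1B1-/-. Their difference after HDM thus rests on few or no counts.

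**Figure D5:**
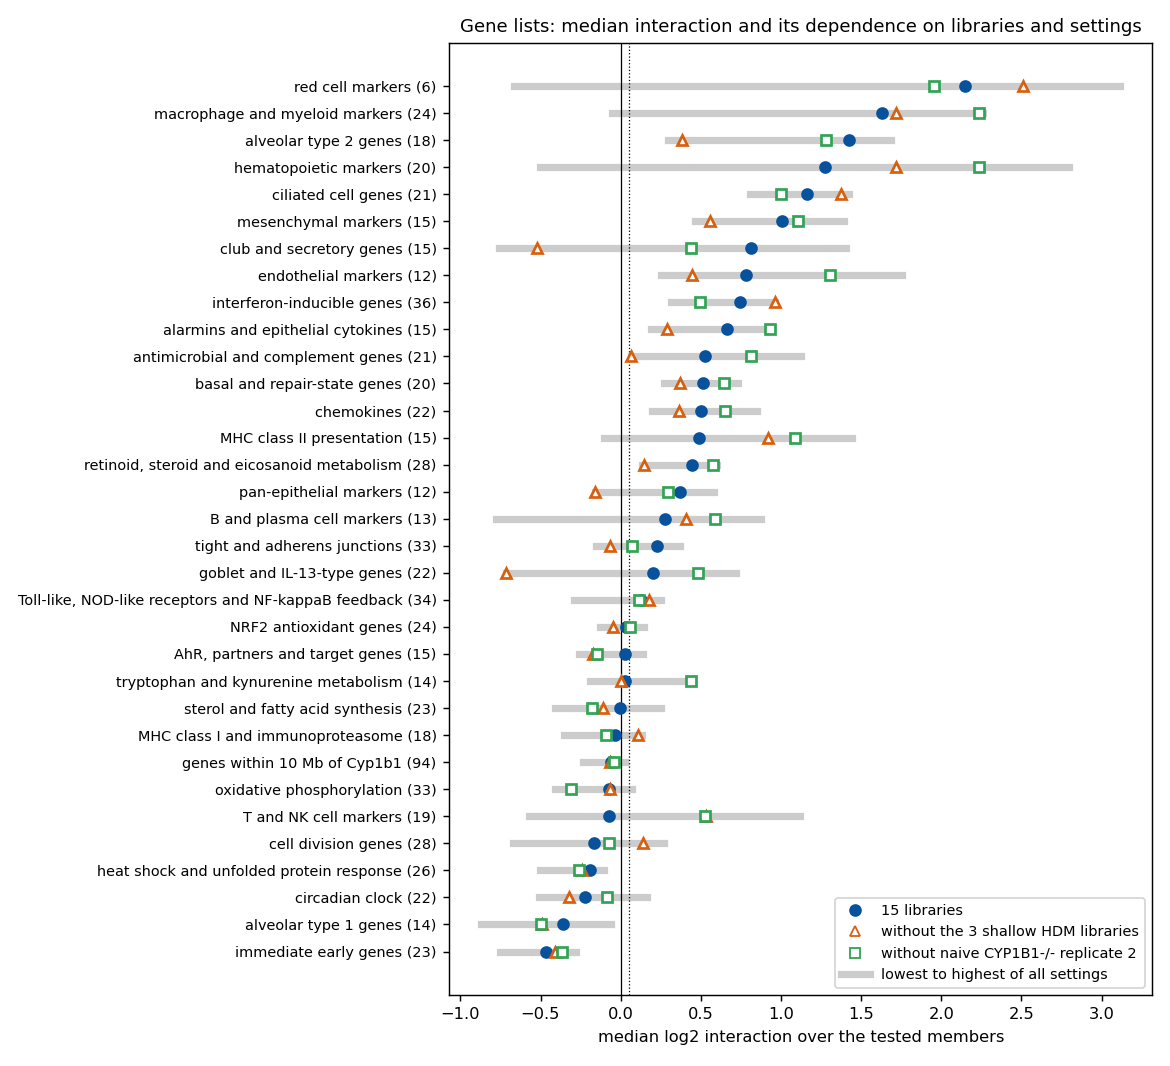
Median log2 interaction of each gene list (number of tested genes in brackets) with all 15 libraries, without the 3 shallow HDM libraries and without the naive CYP1B1-/- replicate 2. Grey bars run from the lowest to the highest median over all alternatives and the dotted line is the median of all genes, 0.05. The bars of the ciliated, interferon-inducible, alveolar type 2, basal, alarmin, chemokine, antimicrobial and retinoid lists stay above 0, as do those of the mesenchymal and endothelial markers, while the hematopoietic, red cell, club and goblet lists cross it.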

How the data were processed

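RNA of sorted lung ECs was sequenced from template-switched, oligo-dT primed cDNA. Per the methods, the authors removed adapters with bbduk and aligned reads to mm10 (GSNAP, version 2020-03-12). Reads were assigned to genes of Ensembl release 99 by featureCounts 2.0.0. Each deposited value is a raw, unnormalized read count. The strand setting is not given in the sources used here. Reads carry no molecular identifiers, so floors cover counting error only.

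Both count tables were joined by gene identifier and limited to 21793 genes that are protein-coding in GENCODE M21. In R 4.3.3, edgeR 4.0.16 was used with filterByExpr (minimum count 10, minimum total count 15), TMM normalization and glmQLFit with robust estimation, with 4 groups of 15 libraries in one fit and the interaction as a contrast. Unadjusted and Benjamini-Hochberg adjusted p-values come from its two-sided quasi-likelihood test. Standard errors are those of the fitted contrast with the moderated quasi-dispersion. CPM use TMM library sizes, and mean log2 CPM of lists a prior count of 1.

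Named genes were the CYP1 genes, Ahr and the sorting markers, in each direction the 10 genes at 5 CPM or more with the lowest p, up to 3 genes per list and direction at an unadjusted p under 0.05 (or the 2 of highest level), 4 genes known from earlier results, and genes within 10 Mb of Cyp1b1. Genes named outside this rule are marked in the text. The comparison, genes and lists were chosen with earlier results of these data known. A list is described by its counts and median, with no test.

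The alternatives were edgeR's likelihood ratio test, DESeq2 1.42.0, limma 3.58.1 voom with sample weights, no robust estimation, no filter or at least 10 counts in every library, RLE, upper-quartile and within-table TMM normalization, all genes, no genes holding at least 1% of a library, all 22 libraries, the replicate number as a block, the hematopoietic level as a covariate, and each library left out in turn. Leaving out the 3 shallow HDM libraries, with or without the naive CYP1B1-/- replicate 2, was chosen after seeing the data. Scripts were tested on simulated data. The libraries of AhR-/- mice entered the fit of 22 libraries and no other.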

Additional observations from a re-analysis of the deposited data

Results flagged for a closer look

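Within groups of 4 libraries, Dixon's test marked 14 single libraries among 285 group tests of the named genes, lists and totals, and about 5% of groups are marked by chance. Among WT HDM libraries these were replicate 3 for Pecam1 (22.6 CPM, others 8.41 to 9.31), replicate 1 for Rab4a (1.87 CPM, others 0.901 to 0.973), and replicate 2, a shallow library, for Tlr4 (8.11 CPM, others 14.4 to 14.9), C1qa (2.10 CPM, others 7.95 to 8.64) and Ccdc138 (3.30 CPM, others 4.11 to 4.26). Among naive WT libraries they were replicate 1 for Sema6d (43.4 CPM, others 50.4 to 51.7) and replicate 4 for Epha7 (3.71 CPM, others 7.08 to 7.78), Ide (194.7 CPM, others 149 to 153) and Gm4951 (0.253 CPM, others 1.31 to 1.44). Replicate 4 was also low in the mean log2 CPM of the antimicrobial and complement genes (1.35, others 1.97 to 2.04). Among HDM libraries labelled CYP1B1-/-, replicate 3 was low for Resp18 (3.08 CPM, others 17.3 to 19.6) and for the mean log2 CPM of the retinoid, steroid and eicosanoid genes (2.84, others 3.23 to 3.27). Total counts were high in the naive WT replicate 4 (17707000, others 10476829 to 11273312) and in the WT HDM replicate 1 (15512503, others 9654825 to 10319824).

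The genotype difference had opposite directions in the 2 states, with no library of one genotype overlapping the other, for Hist1h1c (log2 interaction -1.35), 1700030J22Rik (1.65) and Ccdc138 (1.01). The edgeR test of the interaction called none of them, and how many genes would cross by the random order of libraries was not tested. F830016B08Rik passed in DESeq2, with a log2 interaction of 3.43.

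Immunoglobulin genes, which are outside the protein-coding class used here, took up to 1.11% of the counts of an HDM library, against 0.00196 to 0.0196% at steady state.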

How the results depend on the processing

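The count of genes passing an adjusted p of 0.05 was 0 in every alternative run except DESeq2, which called 1 gene. At an unadjusted p under 0.05, against 248 genes above 0 and 118 below, there were 980 and 532 with limma voom, 351 and 131 in the likelihood ratio test, 438 in both directions with no filter, and 120 and 164 with at least 10 counts in every library. Both directions together numbered 191, 202 and 216 genes without the naive WT replicate 1, 2 or 3, 212 and 624 without the WT HDM replicate 3 or 2, and 241 and 826 without the CYP1B1-/- HDM replicate 1 or 3. Of the 60 named genes tested, 54 kept the sign of their interaction in all alternatives. The replicate numbers did not pair the libraries. The deviations of same-numbered libraries correlated between -0.02 and 0.10 at steady state and between -0.56 and 0.57 after HDM. With the replicate number as a replicate block, 0 genes passed, with 194 above 0 and 63 below at an unadjusted p under 0.05, and with a block within each state 238 and 138. The block turned the interaction of Cyp1b1 to -0.056 (-0.10 within state) and that of Ide to 0.00094. Within state it gave -0.15 for Ptprc, -0.11 for Pecam1, and medians of -0.50 for hematopoietic, -0.051 for macrophage, -0.77 for B and plasma cell and -0.66 for red cell markers. The cause of these changes was not tested.

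With limma voom and sample weights, Cyp1b1 was at -0.11, and medians were -0.21 for the AhR list, -0.47 for heat shock, -0.41 for sterol synthesis, 1.04 for T and NK cell, 1.76 for endothelial and 0.42 for red cell markers. With the hematopoietic covariate the red cell median was -0.084. Without the 3 shallow libraries, Cyp1b1 was at -0.56 and Ide at 0.21, and medians were -0.17 for the AhR list, 0.14 for retinoid metabolism, 0.38 for alveolar type 2, -0.52 for club, -0.72 for goblet and -0.16 for pan-epithelial genes.

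With libraries left out, singly or as the 3 shallow ones with the naive CYP1B1-/- replicate 2, interactions ranged from -0.61 to 0.28 for Cyp1b1, from -0.67 to 0.16 for Ahr, from -0.060 to 1.62 for Pecam1, from -0.30 to 1.19 for Il33 and from -0.35 to 0.38 for Ide. Medians ranged from -0.26 to 0.13 for the AhR list, from -0.17 to 0.44 for tryptophan and kynurenine, from 0.13 to 0.60 for retinoid metabolism, from -0.51 to 0.17 for the clock, from 0.29 to 1.68 for alveolar type 2, from -0.76 to 1.41 for club, from -0.50 to -0.10 for heat shock and from -0.15 to 0.59 for pan-epithelial genes. For hematopoietic markers the range was -0.17 to 2.80, for macrophage markers 0.24 to 2.26, for T and NK cell markers -0.57 to 1.12, for B and plasma cell markers -0.77 to 0.87, for red cell markers -0.61 to 3.12 and for genes within 10 Mb of Cyp1b1 -0.23 to 0.027. The lowest hematopoietic, macrophage, T and NK cell, B and plasma cell and red cell medians in these ranges were those without the naive WT replicate 1. The median standard error was 0.56 and 3 counts were 0.126 to 1.02 CPM. The parts of depth, library number and spread between libraries in this error were not tested, and state, run and sex cannot be told apart.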
